A study of Mus musculus with 30 samples.

Results

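The genes described here are 9 core genes of the Hedgehog pathway, Ptch1, Smo, Gli1, Gli2, Gli3, Sufu, Disp1, Hhip and Gpr161. They were chosen by name from the 55401 genes of the deposited count tables, and all 9 were found there. Nuclear RNA was sequenced from mouse embryonic stem cells (mESCs) in 30 libraries, which fall into 15 groups with 2 libraries each. The libraries of a group are labelled as separate samples, and the study's methods call them biological duplicates. Exonic counts, which come mostly from processed transcripts, are given first, and the counts of the deposited intron column are set beside them.

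SYAT cells are 1 homozygous clone of the mESC line CGR8 in which both alleles of Srcap carry the tag YPet-AID, and which also express the receptor OsTir1 from a lentiviral transgene. SRCAP is the catalytic subunit of the remodeller that exchanges H2A for the histone variant H2A.Z, and indole-3-acetic acid (IAA) leads to degradation of the tagged protein. In the time course, SYAT cells were given IAA at 500 µM over 2, 4, 6 and 8 h, and control cells received auxinole, an inhibitor of OsTir1 (10 libraries). CGR8 cells without tag and receptor, with and without 4 h of IAA, control for effects of IAA itself (4 libraries). SYAT cells with and without 1 h of IAA were also sorted in early G1 (EG1) or late G1 (LG1), by the mCherry signal of a mitotic degron and by DNA content (8 libraries). The study's methods name auxinole as the control condition of SYAT cells in general. Finally, SYAT lines carried doxycycline-inducible wtSRCAP-mCherry or catalytically dead cdSRCAP-mCherry, 1 clone each. These lines received doxycycline for 24 h, and IAA for 4 h or, as controls, auxinole, and were sorted for mCherry (8 libraries). All cells were in serum with leukaemia inhibitory factor. All groups of the last comparison carry doxycycline and the transgene, the controls included. Each of the 4 experiments has its own count table, and contrasts were made only within a table.

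Hedgehog ligands are lipid-modified proteins that leave the producing cell with the help of the transporter Dispatched (Disp1). On the receiving cell, Patched1 (Ptch1) keeps the transmembrane protein Smoothened (Smo) inactive until a ligand binds, and Hhip binds ligand and takes it out of play. Signalling passes through the primary cilium, in which Gpr161 holds the pathway off and from which the transcription factors Gli1, Gli2 and Gli3 carry the signal to the nucleus. Sufu inhibits the Gli proteins in the cytoplasm. Gli2 acts mostly as activator and Gli3 mostly as repressor, whereas Gli1, Ptch1 and Hhip are classical targets that rise with pathway activity. Because the pathway needs a cilium, genes of the cilium are set beside these 9 genes below.

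Disp1 (ENSMUSG00000030768.12) lies on chr1:183086266-183221522 of mm10 on the minus strand, with a processed pseudogene, BC085271, inside it on the same strand. Ptch1 lies on chr13:63508328-63573598 (minus), Hhip on chr8:79965851-80058006 (minus), Smo on chr6:29735503-29761365 (plus), Gpr161 on chr1:165295789-165326745 (plus) and Sufu on chr19:46396896-46488804 (plus). Gli1 lies on chr10:127329882-127341974 (minus), Gli2 on chr1:118834132-119053619 (minus) and Gli3 on chr13:15463235-15730026 (plus). Gli1 overlaps Arhgap9 and Gm47200 on the other strand. The library kit keeps strand, but the strand setting of the counting is not given in the sources used here, so reads of such partners may not have been told apart.

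The stretches before the starts of Disp1 and Gli2 are shown because, among contrasts of cells with and without IAA and with no replicate block, Disp1 was the only member called by adjusted p in edgeR and Gli2 had the next smallest adjusted p, and because H2A.Z exchange by SRCAP takes place at promoters. Each is 250 bases of the gene's strand up to the base before a start annotated by RefSeq (GRCm38.p6), with CpG dinucleotides in capitals. Disp1 has 2 annotated starts, and the stretches lie at chr1:183221530-183221779 (first line), chr1:183147558-183147807 (second line) and chr1:119053620-119053869 (Gli2), all on the minus strand.
Disp1, first start: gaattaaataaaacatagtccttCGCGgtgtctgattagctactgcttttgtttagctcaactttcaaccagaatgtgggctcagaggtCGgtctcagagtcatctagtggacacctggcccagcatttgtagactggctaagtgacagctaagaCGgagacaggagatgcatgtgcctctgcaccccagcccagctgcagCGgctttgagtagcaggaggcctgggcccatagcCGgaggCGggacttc
Disp1, second start: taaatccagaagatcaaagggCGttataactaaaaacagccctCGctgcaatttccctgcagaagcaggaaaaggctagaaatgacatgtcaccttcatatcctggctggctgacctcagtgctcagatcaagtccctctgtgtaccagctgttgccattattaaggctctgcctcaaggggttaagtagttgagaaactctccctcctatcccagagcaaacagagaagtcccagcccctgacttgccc
Gli2: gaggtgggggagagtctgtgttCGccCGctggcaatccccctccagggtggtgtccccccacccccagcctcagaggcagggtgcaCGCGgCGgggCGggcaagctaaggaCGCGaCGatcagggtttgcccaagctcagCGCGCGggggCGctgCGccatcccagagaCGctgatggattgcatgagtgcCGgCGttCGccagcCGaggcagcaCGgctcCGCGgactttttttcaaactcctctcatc
Windows from 250 bases before to 50 bases after a start were scored for all 32851 starts in the RefSeq table. The window of the first Disp1 start held 18 CpG, a number reached by 29.7% of all windows, and that of Gli2 held 28 (14.2% of windows). The second Disp1 start held 4 CpG (68.6%), below the median of 7. The GLI consensus GACCACCCA or its reverse complement TGGGTGGTC was present in 0 of the 10 windows of the 8 members with an entry, against 0.253% of all windows. That match was sought only by these letters in these windows.

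In control SYAT cells of the time course, Smo, Sufu, Ptch1 and Gli3 were the most abundant members. On the scale of exonic CPM per kb of exon, Smo had a mean level of 9.47, Sufu 7.58, Ptch1 6.66 and Gli3 6.30. Gli1 (3.47), Disp1 (3.12), Gli2 (2.04) and Gpr161 (1.31) were lower, and Hhip was barely present at 0.0959. Ranges of the 2 control libraries overlapped for the neighbours Smo and Sufu, Ptch1 and Gli3, and Gli2 and Gpr161, whereas they did not overlap for the other neighbours. The pluripotency factor Pou5f1 was at 268 on this scale. CGR8 controls had Ptch1 at 12.7, Gli1 at 10.4 and Gli2 at 8.10 CPM per kb, but that table was made separately and its levels were not tested against SYAT cells.

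Hedgehog ligands were near the detection limit. Shh had at most 7.56 normalized exon counts in the 10 time course libraries, Ihh between 1.74 and 12.5, and Dhh between 2.55 and 16.6 (counts scaled to a common library size). Only Ihh and Dhh passed the filter on low counts. The coreceptors were present, with 645 and 521 normalized counts of Cdon, 38.3 and 37.1 of Boc and 66.2 and 52.3 of Gas1 in the 2 controls.

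Libraries were of moderate depth. Exon columns summed to 17540823 to 22873893 counts in the time course, 45617992 to 60214521 in CGR8 cells, 19740778 to 26672402 in sorted cells and 12236493 to 26369773 in wtSRCAP and cdSRCAP cells. All 8 ES cell markers were detected in each group. The RNA of Srcap does not report on depletion, which acts on the protein, and had 815 and 936 normalized exon counts in the controls and 917 to 1231 after IAA in the time course. Replicate 2 at 6 h had the lowest TMM factor of the time course (0.854). In these bulk samples, fewer cells of a type and less RNA per cell cannot be told apart.

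Upon SRCAP degradation, Disp1 was the only member that passed the test in exonic reads. Its normalized exon counts were 344 and 322 in the controls, 206 and 202 at 2 h, 195 and 162 at 4 h, 210 and 192 at 6 h, and 221 and 209 at 8 h. All 8 IAA libraries lay below both controls, at every time, as for 9.2% of all genes tested. The mean of the 4 times was 200 against 333 in the controls, so Disp1 fell, with log2 fold change −0.74 (standard error 0.137, edgeR adjusted p = 0.0403). A call here means an adjusted p under 0.05 and an absolute log2 fold change over 0.5. By this rule 1.21% of the 19205 genes tested were called in this contrast (1.01% lower), and 1 of the 9 members. At single times, 0 of 9 members passed in edgeR, as did 0%, 0%, 0.0677% and 0.00521% of all genes at 2, 4, 6 and 8 h. DESeq2 called 1 member at a single time, Disp1 at 4 h (adjusted p = 0.0284). Over all genes DESeq2 called many more than edgeR at single times (counts in the last section), so the edgeR shares do not apply to it. For Disp1, edgeR gave log2 fold changes of −0.71, −0.90, −0.73 and −0.63 at 2, 4, 6 and 8 h with adjusted p-values of 0.877, 0.183, 0.109 and 0.165. These 4 contrasts share the control libraries, so they are not independent. Leaving out 1 library at a time ended the call of the mean in 8 of 10 cases, with log2 fold changes of −0.79 to −0.70 and adjusted p-values up to 0.523. The call was kept when either of the 6 h libraries was left out.

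A looser rule, an unadjusted p under 0.05 and an absolute log2 fold change over 0.25, serves here only as a description. It was met by 1, 2, 3 and 3 of the 9 members at 2, 4, 6 and 8 h, against 3.91%, 9.08%, 16.1% and 13.6% of all genes. These were Disp1 at all 4 times, Gli1 from 4 h on and Hhip from 6 h on. For the mean of the 4 times it was met by 3 members, against 13.8% of all genes, with Disp1 lower and Gli1 and Hhip higher. With only 9 genes, counts of members can be read against these shares only coarsely.

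**Figure D1:**
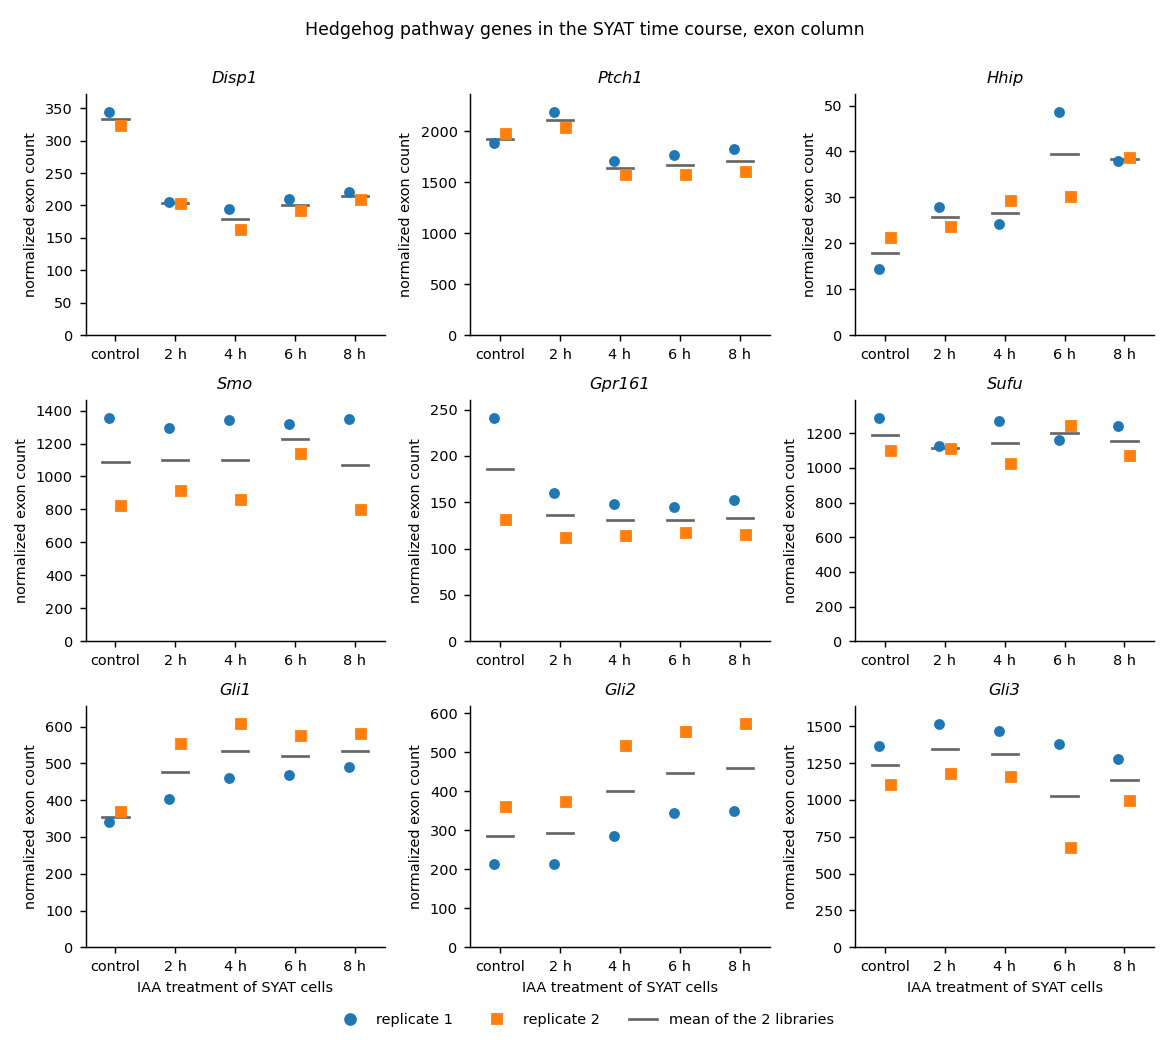
Normalized exon counts (vertical axes, linear, from 0) of the 9 members in SYAT cells, control and 2, 4, 6 and 8 h after IAA (horizontal axes). Points are the 2 libraries of a group and bars their mean. Disp1 lies below both controls in all 8 IAA libraries and Gli1 above both, whereas in Smo and Gli2 the spread between replicates is wide within every group.

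The receptor Ptch1 did not pass in any contrast of the time course. It had 1884 and 1978 normalized exon counts in the controls, 2193 and 2033 at 2 h, 1710 and 1569 at 4 h, 1768 and 1575 at 6 h, and 1824 and 1604 at 8 h. Both 2 h libraries lay above the controls, as for 18.6% of all genes, and all libraries of the later times below them, as for 24.1%, 22.2% and 24% of all genes at 4, 6 and 8 h. The log2 fold changes were 0.13, −0.24, −0.21 and −0.17, and that of the mean was −0.12 (standard error 0.102, unadjusted p = 0.260 from edgeR).

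Hhip, the ligand trap, was scarce. It had 14.5 and 21.1 normalized exon counts in the controls, 27.9 and 23.6 at 2 h, 24.2 and 29.1 at 4 h, 48.6 and 30.1 at 6 h, and 38.0 and 38.6 at 8 h. Every IAA library was above both controls, as for 5.97% of all genes tested. The log2 fold change of the mean was 0.83 (standard error 0.325, adjusted p = 0.279 from edgeR), and those at 6 and 8 h were 1.13 and 1.09 with unadjusted p-values of 0.0164 and 0.0184. With so few counts, this difference did not pass over all genes.

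Of the transduction genes, Smo had 1355 and 820 normalized exon counts in the controls, and between 794 and 1351 after IAA. In every group replicate 1 was above replicate 2, and the log2 fold change of the mean was 0.05 (standard error 0.256). The replicate gap, larger than any shift between groups, limits what Smo can show. Gpr161 had 241 and 131 normalized exon counts in the controls and between 112 and 160 after IAA. Its control replicate 1 alone stood apart, and the log2 fold change of the mean was −0.48 (standard error 0.253, unadjusted p = 0.0850 from edgeR). Sufu, the cytoplasmic Gli inhibitor, showed no shift beyond the replicate spread, with 1288 and 1096 normalized exon counts in the controls, 1023 to 1270 after IAA, and a log2 fold change of −0.05 (standard error 0.122).

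Among the transcription factors, Gli1 had 340 and 369 normalized exon counts in the controls, 402 and 553 at 2 h, 460 and 607 at 4 h, 467 and 573 at 6 h, and 489 and 579 at 8 h. All 8 IAA libraries were above both controls. A gap of this kind for all 8 libraries was found above the controls in 5.97% and below them in 9.20% of all genes tested. The log2 fold change of the mean was 0.54 (standard error 0.175, unadjusted p = 0.0114, adjusted p = 0.183 from edgeR), which did not pass.

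Gli2 had 214 and 360 normalized exon counts in the controls, 215 and 373 at 2 h, 286 and 517 at 4 h, 345 and 552 at 6 h, and 349 and 573 at 8 h. Replicate 2 was above replicate 1 in every group, and the groups overlap at each time. The log2 fold changes were 0.04, 0.49, 0.64 and 0.68, and that of the mean was 0.46 (standard error 0.329, unadjusted p = 0.190 from edgeR). This fit does not take the replicate gap into account. With the replicate number as a block, an alternative for this experiment, Gli2 passed at 6 and 8 h (edgeR adjusted p = 0.0313 and 0.0276). For the mean the blocked adjusted p was 0.0383, with a log2 fold change of 0.46, under the 0.5 of the rule. The labels do not give this pairing. Gli3 had 1367 and 1103 normalized exon counts in the controls and 995 to 1514 in 7 of the 8 IAA libraries. Replicate 2 at 6 h, the library with the low TMM factor, had 676. Its log2 fold change of the mean was −0.04 (standard error 0.233).

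Markers of other cells were summed beside the members, without a test. In the time course, the summed normalized exon counts of 4 mesendoderm markers (T, Eomes, Mixl1, Gsc) were 184 to 254 in the controls and 274 to 472 after IAA, and those of 3 neural markers (Pax6, Sox1, Neurog2) were 139 to 219 and 235 to 388. Sums of 5 endoderm markers were 109 to 118 in the controls and 111 to 185 after IAA, with Afp at 0 at 2 and 4 h. Those of 4 fibroblast markers, of which Postn was at 0 in every group, were 436 to 538 and 455 to 779. Sums of the mesendoderm and neural lists did not overlap between controls and IAA libraries, whereas those of the endoderm and fibroblast lists did. Of all single genes tested, 5.97% lay above both controls in every IAA library. In the intron column Sox1 and Neurog2 were at 0, so the neural sum was Pax6 alone (146 to 232 in controls, 251 to 413 after IAA). The mesendoderm sum there was T alone and overlapped (23.1 to 25.6 and 22.4 to 68.1). The part of such cells in the values of Gli1, Gli2 and Hhip was not tested.

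Values of the intron column have to be read with care. In the time course, 50.8% to 52.1% of 1302 expressed single-exon genes, which contain no intron, had counts in this column, and in EG1 44.8% to 45.6% of 1993. These columns thus also hold exonic reads, unlike those of CGR8, LG1, wtSRCAP and cdSRCAP cells, where the share was at most 0.1%. Zeros are no sign of silence either. Gli1 was at 0 in the intron column of all CGR8 libraries, in which it had 2496 to 2769 normalized exon counts, and Hhip was at 0 in that of the time course.

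In the intron column of the time course, 0 of the 8 members tested passed in edgeR, against 0.910% of 14719 genes for the mean of the 4 times, and 0%, 0%, 0.0136% and 0.00679% at 2, 4, 6 and 8 h. By the looser rule 2 members were past it for the mean, Disp1 lower and Gli1 higher, against 14.8% of all genes. DESeq2 called 0 members in any of these contrasts. Disp1 had 248 and 315 normalized intron counts in the controls, 0 and 0 at 2 h, 0 and 0 at 4 h, 98.1 and 0 at 6 h, and 0 and 128 at 8 h. After IAA, 6 of the 8 libraries were listed at 0 and the other two were below both controls. With a floor of 3 counts per library, the column was at least 93.6-fold lower at 2 h and at least 95.6-fold lower at 4 h. This is a bound for counts of the column and not for transcription, as exonic counts in the same libraries were 162 to 206. The control mean of this column was 282, against 333 in exons, so the control counts may be exonic reads, which was not tested. In intron columns without exonic reads, Disp1 had log2 fold changes of −0.38 in wtSRCAP and −1.05 in cdSRCAP cells with 4 h of IAA. The mean had an unadjusted p = 0.0102 and an adjusted p = 0.167 from edgeR.

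Gli1 had 170 and 175 normalized intron counts in the controls and 183 to 328 after IAA, and for the mean a log2 fold change of 0.57 (standard error 0.241, edgeR adjusted p = 0.327). Gli2 had 559 and 1059 in the controls, 993 and 1593 at 2 h, 860 and 2581 at 4 h, 1562 and 2112 at 6 h, and 945 and 3388 at 8 h, a log2 fold change of 1.09 for the mean (standard error 0.578, unadjusted p = 0.0959). As in exons, the 2 replicates lay far apart. The other members had log2 fold changes of the mean between −0.41 (Gpr161) and 0.25 (Gli3). Gli1 was at 0 in the intron columns of CGR8, LG1, wtSRCAP and cdSRCAP cells, which do not hold exonic reads as the time course column does. The Gli1 counts of the time course column may thus be exonic reads, which was not tested.

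CGR8 cells have no degron, and Disp1 was at the control level there after IAA. It had 925 and 1276 normalized exon counts without IAA and 1028 and 1022 with it (log2 fold change −0.10, standard error 0.191). Gli1 had 2769 and 2689 against 2545 and 2496, a log2 fold change of −0.11 (standard error 0.135). Ptch1 had 9003 and 10007 against 9058 and 8416 (log2 fold change −0.12), and Hhip 195 and 233 against 191 and 264 (0.09). Gli2 was the exception by the looser rule, with 2898 and 2968 normalized exon counts against 4024 and 3445, both higher than either control, as for 21.6% of all genes (log2 fold change 0.35, standard error 0.142, unadjusted p = 0.0379, adjusted p = 0.540 from edgeR). Neural marker sums were 1204 to 1291 without and 1638 to 1685 with IAA in these cells, and fibroblast marker sums 660 to 706 and 708 to 754. Of the neural list, Pax6 alone was higher with IAA (981 and 1115 against 1502 and 1543 normalized exon counts). Sox1 was lower (223 and 176 against 136 and 142), and Neurog2 was at 0 in every library. Of the fibroblast list, Thy1 (375 and 480 against 479 and 518) and Col1a1 (297 and 170 against 215 and 154) overlapped. Col1a2 was higher (34.5 and 10.8 against 60.3 and 35.7), and Postn was at 0. Mesendoderm (216 to 346 and 296 to 390) and endoderm marker sums (293 to 335 and 282 to 314) overlapped. Their part in the Gli2 values was not tested.

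In CGR8 exons, 0 of 9 members passed the rule with adjusted p in edgeR, against 0.00988% of 20250 genes, and 1 met the looser rule, against 9.16%. In introns 0 of the 8 tested passed, against 0.0220% of 13634 genes, and 0 met the looser rule, against 5.24%. DESeq2 called 0 members in either column. Disp1 had 882 and 775 normalized intron counts without and 678 and 711 with IAA, which do not overlap, as for the 17.5% of all genes that were below their controls (log2 fold change −0.25, standard error 0.155, unadjusted p = 0.140 from edgeR). Smo, Gpr161, Sufu and Gli3 had exonic log2 fold changes between −0.15 and 0.03.

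**Figure D2:**
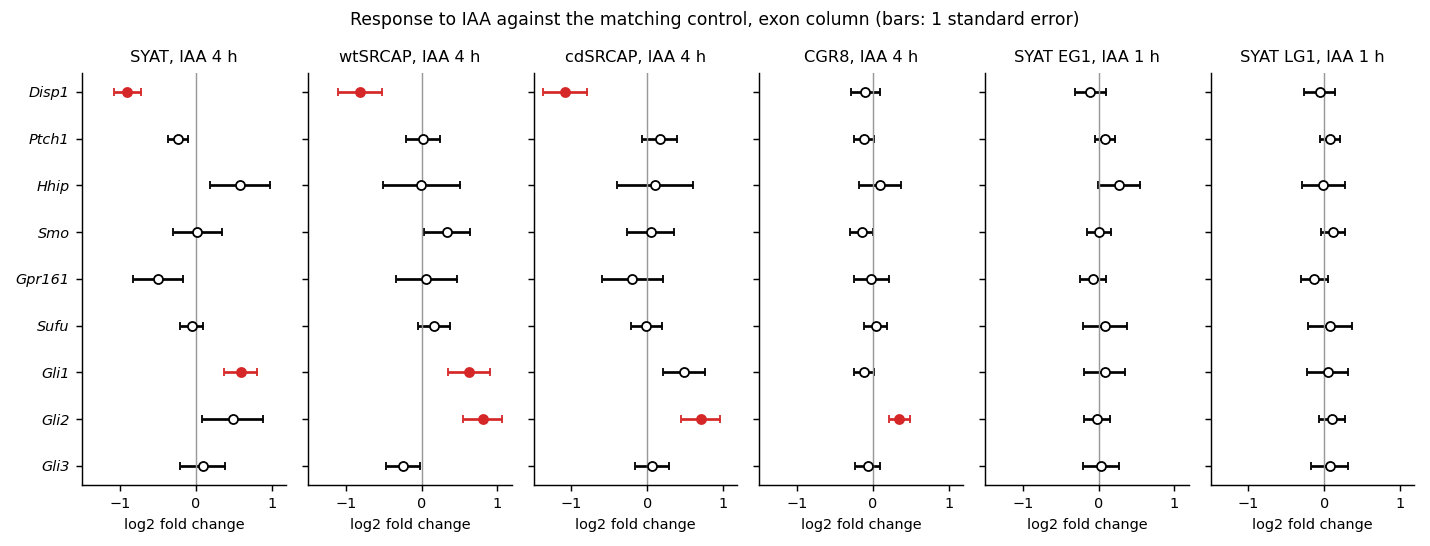
Log2 fold changes of exonic counts upon IAA against the matching control (horizontal axes) for the 9 members (rows), with bars of 1 standard error from edgeR, in SYAT, wtSRCAP, cdSRCAP and CGR8 cells at 4 h and in EG1 and LG1 at 1 h. Filled red points met the looser rule, among them Disp1 at −0.90 in SYAT, −0.81 in wtSRCAP and −1.09 in cdSRCAP cells, while Disp1 lies at −0.10 in CGR8 cells and all EG1 and LG1 values lie between −0.13 and 0.27.

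After 1 h of IAA in sorted cells, 0 members differed by the rule in exonic counts. The study's rule for these cells is the looser one, and 0 of 9 members met it in EG1, in LG1, between both responses or between the 2 controls, where 1.22%, 1.02%, 0.699% and 1.44% of 21020 genes did. With DESeq2 the count was also 0. With the replicate number as a block it stayed at 0, whereas 6.04%, 4.2%, 3.76% and 7.31% of all genes then met the rule. Log2 fold changes lay between −0.11 and 0.27 in EG1 and between −0.13 and 0.11 in LG1. Disp1 had 525 and 429 normalized exon counts in EG1 controls and 460 and 426 after IAA, and 584 and 434 against 547 and 427 in LG1. Gli1 had 437 and 304 against 447 and 336 in EG1, and 460 and 328 against 471 and 344 in LG1. Ptch1 in LG1 was the only member whose exonic counts did not overlap, with 2847 and 2691 in the controls and 2937 and 2889 with IAA (log2 fold change 0.07, unadjusted p = 0.590 from edgeR), and 7.83% of all genes lay above their controls in this way.

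In the intron column of EG1, Disp1 was the 1 member past the rule, against 2.28% of 17441 genes. Its normalized intron counts were 286 and 66.9 without IAA and 0 in both libraries with it (at least 94.5-fold lower by the floor of 3 counts per library, unadjusted p = 0.0002, adjusted p = 0.532 from edgeR). The controls themselves lay far apart. In LG1 Disp1 had 1521 and 1247 against 1262 and 922, a log2 fold change of −0.34 (standard error 0.612), and 0 members were past the rule, against 3.94% of all genes. Between both responses Disp1 alone was past it (unadjusted p = 5.48e-04 from edgeR), against 1.8% of all genes. With the exon column subtracted, this difference changed sign, and Disp1 was at 0 in both EG1 groups. EG1 and LG1 levels of this column cannot be set against each other, since 64.5% of all genes and 8 of the 9 members were past the rule between the 2 controls, and only the EG1 column holds exonic reads.

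Disp1 and Gli2 had lower and higher values, respectively, with IAA also in cells that express a SRCAP transgene. In wtSRCAP cells, Disp1 had 708 and 472 normalized exon counts without and 317 and 353 with IAA (log2 fold change −0.81, standard error 0.289, unadjusted p = 0.0197, adjusted p = 0.644 from edgeR). In cdSRCAP cells it had 649 and 608 against 361 and 232 (−1.09, standard error 0.290, unadjusted p = 0.0042, adjusted p = 0.721). In neither line did the groups overlap, and the same held for 19.5% of all genes in wtSRCAP and 19.0% in cdSRCAP cells that were below their controls. The 2 responses differed by −0.27 (standard error 0.406, unadjusted p = 0.515), which is within the spread. Same-numbered libraries of this table deviated together in exons, and with the replicate number as a block Disp1 passed in both lines, with edgeR adjusted p-values of 0.0386 in wtSRCAP and 0.0051 in cdSRCAP cells.

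Intronic counts of Disp1 passed in cdSRCAP cells. They were 861 and 887 in cdSRCAP controls and 432 and 414 after IAA, so Disp1 fell (log2 fold change −1.05, standard error 0.147, edgeR adjusted p = 0.0382). In wtSRCAP cells they were 651 and 710 against 564 and 483 (−0.38, standard error 0.148, adjusted p = 0.325). Groups that lay wholly below their controls were found for 24.6% and 21.1% of all genes in cdSRCAP and wtSRCAP introns. The response in cdSRCAP minus that in wtSRCAP cells was −0.66 (standard error 0.208, unadjusted p = 0.0102, adjusted p = 0.9999), so a difference between the lines did not pass over all genes. The controls also differed, by 0.36 (unadjusted p = 0.0337, adjusted p = 0.642). Leaving out 1 library at a time ended the cdSRCAP call in 6 of 8 cases, with log2 fold changes of −1.05 to −0.98 and adjusted p-values up to 0.531. The call was kept when either of the wtSRCAP libraries with IAA was left out.

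Gli2 had 750 and 1086 normalized exon counts in wtSRCAP controls and 1302 and 1904 after IAA (log2 fold change 0.81, standard error 0.261, unadjusted p = 0.0124, adjusted p = 0.642 from edgeR). In cdSRCAP cells the values were 1460 and 1428 against 2525 and 2172 (0.70, standard error 0.260, unadjusted p = 0.0235, adjusted p = 0.808). With the block, both exonic differences of Gli2 passed (adjusted p = 0.0114 and 0.0317 from edgeR). In introns they were 2096 and 2510 against 4799 and 4118 in wtSRCAP cells, with log2 fold change 0.95 (standard error 0.179, unadjusted p = 0.0004, adjusted p = 0.0741). In cdSRCAP introns they were 4361 and 3638 against 7030 and 6181 (0.72, standard error 0.177, adjusted p = 0.150). All IAA libraries thus lay above their own controls in both columns and both lines, as for 14.9% and 18.7% of all genes in wtSRCAP and cdSRCAP exons and 20.4% and 21.8% in introns, while 0 of the 4 contrasts passed in edgeR without the block. With DESeq2 both intronic contrasts of Gli2 passed, with adjusted p-values of 8.05e-05 and 0.0058. Over all genes and contrasts of these introns DESeq2 called many more than edgeR (counts in the last section).

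Between the 2 lines without IAA, Gli2 was also higher in cdSRCAP cells, by 0.65 in exons (unadjusted p = 0.0326) and by 0.80 in introns (standard error 0.178, unadjusted p = 0.0014, adjusted p = 0.1999 from edgeR). Each line is 1 clone, so clone and transgene cannot be told apart. Gli3 had 1022 and 753 normalized exon counts in wtSRCAP and 551 and 611 in cdSRCAP controls (log2 fold change −0.61, unadjusted p = 0.0241). Hhip introns were at 9.68 and 26.4 in wtSRCAP and 54.8 and 68.4 in cdSRCAP controls (1.76, unadjusted p = 0.0070, adjusted p = 0.419). None of these 4 differences passed with adjusted p in edgeR. By the looser rule 2 members differed between these controls in exons (3.82% of all genes) and 3 in introns (7.07%), the third being Disp1.

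Gli1 had 553 and 965 normalized exon counts in wtSRCAP controls and 1112 and 1226 after IAA (log2 fold change 0.62, unadjusted p = 0.0488, adjusted p = 0.672 from edgeR, and 0.0338 with the block), and 862 and 994 against 1190 and 1406 in cdSRCAP cells (0.48, unadjusted p = 0.110). Its intron column was at 0 there. Ptch1 had 2558 and 3279 against 2469 and 3441 in wtSRCAP cells (0.02) and 3405 and 3329 against 3921 and 3635 in cdSRCAP cells (0.17). Hhip, Smo, Sufu, Gpr161 and Gli3 had exonic log2 fold changes between −0.24 and 0.33. Gpr161 introns were low, at 75.4 and 45.6 in cdSRCAP controls and 18.8 and 29.2 after IAA (−1.32, unadjusted p = 0.0163, adjusted p = 0.304).

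In this table, 0 of 9 members passed the rule with adjusted p in exons after IAA in edgeR, against 0.00523% of 19111 genes in wtSRCAP and 0% in cdSRCAP cells, and DESeq2 also called 0. With the replicate block 3 members passed in wtSRCAP cells (Disp1, Gli1 and Gli2, against 3.20% of all genes) and 2 in cdSRCAP cells (Disp1 and Gli2, against 1.81%). By the looser rule 3 members were past it in wtSRCAP (7.40% of all genes) and 2 in cdSRCAP cells (5.64%). Of the 8 members tested in introns, 0 passed in wtSRCAP cells (0.299% of 12702 genes) and 1 in cdSRCAP cells (0.236%), and by the looser rule 2 (12.4%) and 3 (11.3%). Mesendoderm marker sums were 68.4 to 100 in wtSRCAP controls and 144 to 240 after IAA, and 88.6 to 121 against 195 to 196 in cdSRCAP cells. Neural marker sums were 157 to 204 against 280 to 317, and 210 to 269 against 362 to 475. Fibroblast marker sums were 91.6 to 97.7 against 221 to 222, and 119 to 135 against 153 to 160. Endoderm marker sums were 17.9 to 20.9 against 17.3 to 23.3, and 37.4 to 64.1 against 31.3 to 33.6. Afp, Neurog2 and Postn were at 0 in every group. The part of such cells in the values of Gli1 and Gli2 was not tested.

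**Figure D3:**
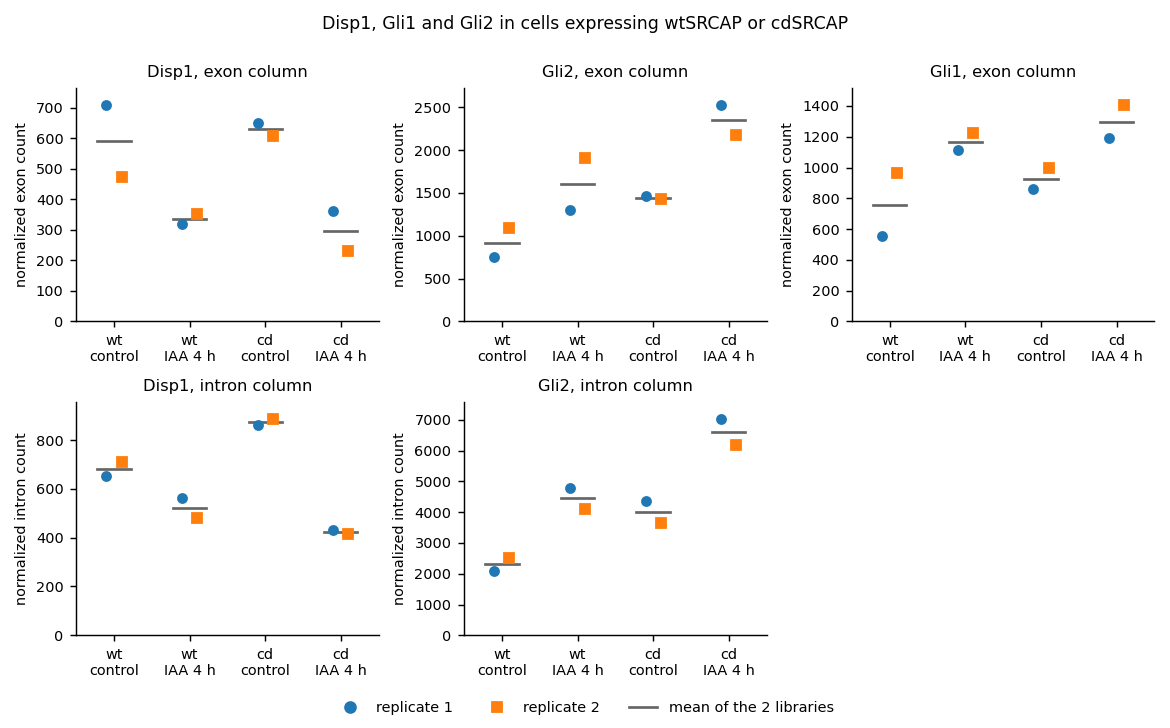
Normalized counts (vertical axes, linear, from 0) of Disp1, Gli2 and Gli1 in the exon column and of Disp1 and Gli2 in the intron column, for wtSRCAP and cdSRCAP cells without and with IAA for 4 h (horizontal axes). Points are the 2 libraries of a group and bars their mean. Disp1 is lower and Gli2 higher in both IAA libraries than in both controls of the same line in each panel.

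The other genes of the pathway were followed as lists. Of 25 intracellular regulators, 0 were called by adjusted p in edgeR for the mean of the 4 times in exons, and 7 met the looser rule, all of them lower (9.07% of all genes were lower by it). The median of the list was −0.14, against 0.02 for all genes. Efcab7, which anchors the Evc complex at the cilium base, had 81.7 and 98.8 normalized exon counts in the controls and 34.3 to 54.1 after IAA (log2 fold change −1.11, adjusted p = 0.0520). Kif7, the ciliary kinesin that organises Gli proteins at the cilium tip, had 474 and 503 in the controls and 228 to 448 after IAA (−0.70). Stk36 (Fused) stood at −0.90, Evc2 at −0.56, Mosmo at −0.49, Prkacb, a catalytic subunit of protein kinase A, at −0.43, and Btrc at −0.42. Efcab7 and Kif7 overlap Itgb3bp and Ticrr on the other strand.

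Of the 6 other receptors and coreceptors, 0 were called and 2 met the looser rule, both higher. Boc had 38.3 and 37.1 normalized exon counts in the controls and 39.6 to 90.3 after IAA (log2 fold change 0.64, unadjusted p = 0.0293), and Lrp2, an endocytic receptor, 9124 and 7755 against 9157 to 13524 (0.43, unadjusted p = 0.0061, from edgeR). The 7 ligand and release genes tested had a median of 0.19 and 0 past either rule. Of 10 textbook targets, 6 could be tested. They had a median of 0.36, and Ccnd1 alone met the looser rule, with 2800 and 2935 against 3296 to 5184 normalized exon counts (0.42).

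In CGR8 cells 5 of the 25 regulators met the looser rule after IAA, all lower, with Kif7 and Evc2 among them, against 4.12% of all genes. Kif7 had 1109 and 1038 normalized exon counts without and 902 and 699 with IAA there. Lower values of these 2 genes with IAA were thus also seen without the degron. In wtSRCAP cells 4 regulators met it (Stk36, Efcab7, Btrc and Mosmo, all lower), and in cdSRCAP cells 4 (Kif7, Iqce, Prkacb and Btrc, all lower) and Boc higher, where 7.40% and 5.64% of all genes met it in either direction.

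Cilium genes gave other counts than the 9 members. For the mean of the 4 times in exons, 10 of 10 genes of the BBSome list, 27 of 27 genes of intraflagellar transport and 18 of 19 genes of the transition zone had a log2 fold change under 0. The BBSome list includes Arl6 and Bbs12, which are not subunits of the complex. The share of all genes under 0 was not counted, and the lists were chosen with earlier results of these data known. Medians were −0.59, −0.40 and −0.62, against −0.04 for the 9 members and 0.02 for all genes tested. By adjusted p, which called 1.01% of all genes lower, 3 BBSome genes fell, Bbs1 (log2 fold change −1.37), Bbs5 (−1.27) and Ttc8 (−1.53). Of the transport genes 5 fell, Wdr19 (−1.06), Kif3b (−0.88), Ttc26 (−1.10), Ttc30a1 (−1.36) and Ttc30b (−2.36), and 1 of the transition zone, Tctn3 (−1.22). Ttc8, a BBSome subunit that helps carry receptors out of cilia, had 128 and 98.8 normalized exon counts in the controls, 57.9 and 56.7 at 2 h, 52.9 and 44.5 at 4 h, 23.7 and 37.6 at 6 h, and 32.0 and 23.5 at 8 h.

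In the intron column of the time course, edgeR called 4 of 8 genes tested of the BBSome list lower for the mean (Bbs1, Bbs5, Ttc8 and Arl6). It called 2 of 23 transport genes (Wdr19 and Ttc30a1) and 0 of 15 transition zone genes lower, against 0.910% of all genes called in either direction. In introns of cdSRCAP cells the counts were 0 of 8, 3 of 25 (Ift43, Ift88 and Kifap3) and 0 of 18, against 0.236%. The time course column also holds exonic reads. Arl6 and Ttc30a1 were at 0 in the intron column of all CGR8 libraries, with 741 to 1103 and 514 to 691 normalized exon counts there. Their time course counts in this column may thus be exonic reads, which was not tested. Exonic medians of the 3 cilium lists after IAA were −0.55, −0.47 and −0.56 in wtSRCAP and −0.51, −0.49 and −0.44 in cdSRCAP cells, where those of the 9 members were 0.06 and 0.07. They were 0.01, −0.02 and 0.13 in CGR8 cells, with the members at −0.07. Lower values of cilium genes and the values of Hedgehog genes come from the same libraries, and no test of one list against the other was made.

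**Figure D4:**
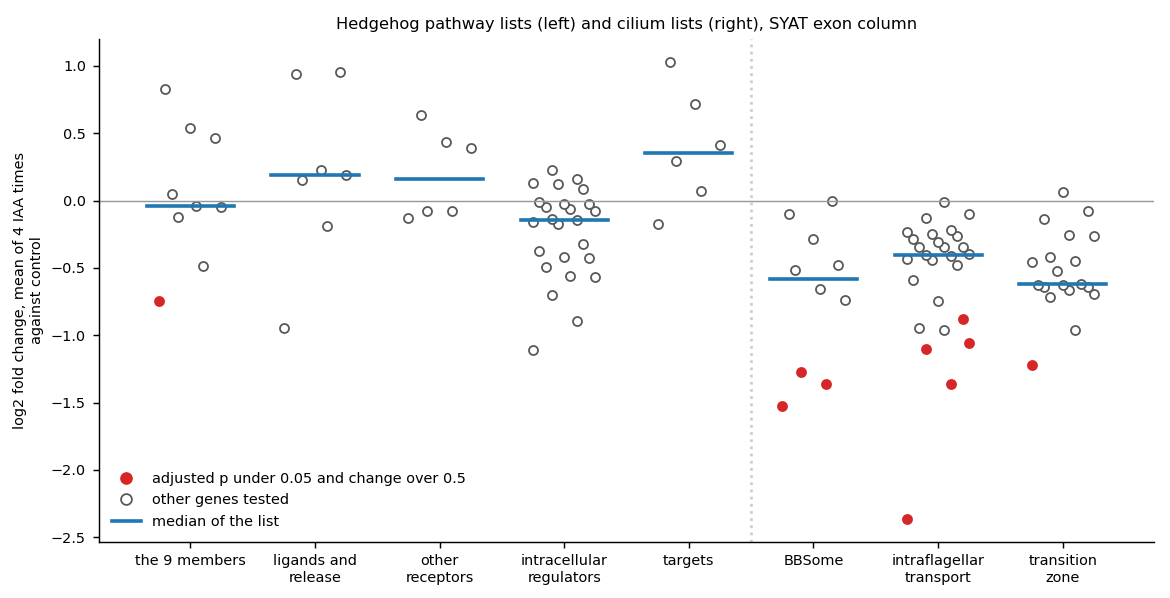
Log2 fold change of exonic counts for the mean of the 4 IAA times against control in SYAT cells (vertical axis), with 1 point per gene tested, for the 5 Hedgehog lists (left) and the 3 cilium lists (right). Blue lines are list medians, at −0.04 for the 9 members and at −0.59, −0.40 and −0.62 for the cilium lists, and filled red points passed the rule with adjusted p.

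For Ptch1, Smo and Gli2, the genes with the most similar pattern over the 10 time course libraries were looked up, on the scale of exonic log2 CPM. Highest Pearson correlations were 0.935 for Ptch1 (Kcna7, followed by Tm2d1), 0.984 for Smo (Kif5c, followed by H2-K1) and 0.975 for Gli2 (Zmym3, followed by Pnn). The 10 points share the replicate gaps described above for Smo and Gli2, and the values are a description.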

How the data were processed

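Nuclear RNA-seq of 30 mESC libraries was analysed. According to the study's methods and the submitters' processing notes, the authors aligned reads to mm10 with STAR, used Picard and SAMtools 1.10, and assigned reads by featureCounts to GENCODE vM25 exons and to introns, taken as the gene body without exons. They deposited raw whole-number counts of 55401 genes per library, in an exon and an intron column and without normalization, in 4 tables. Their tables of comparisons, which hold log2 fold changes and p-values, were not used.

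Groups were taken from the sample labels. Symbols (55141 matched) and coordinates came from GENCODE vM21 (mm10). Per table and column, edgeR 4.0.16 in R 4.3.3 (limma 3.58.1) was used with filterByExpr (minimum count 10, minimum total 15), TMM scaling and the quasi-likelihood test over all libraries of the table, with Benjamini-Hochberg adjustment over all genes. Calls needed an adjusted p under 0.05 and an absolute log2 fold change over 0.5, or, for the sorted cells as in the study, an unadjusted p under 0.05 and 0.25. Normalized counts are scaled to the common library size of a table. Alternatives were DESeq2 1.42.0, RLE scaling, no filter, the replicate number as a block, fits of only the pair compared, the intron minus the exon column, and leaving out each library. The correlation of replicate differences between groups was over 0.1 for every pair of groups in the sorted cells (0.372 to 0.586 in exons, 0.141 to 0.638 in introns) and in wtSRCAP and cdSRCAP exons (0.259 to 0.376), so blocked values are given beside those results where they change a count or call. This pairing comes from the data and not from the labels. The scripts were tested on simulated data. The column sums give the depth per library, and 2 libraries per group limit the precision of each value. The named genes are all members, the fixed lists' called genes, ligands and coreceptors, and those picked out by the looser rule. Members and lists were chosen with earlier results of these data known.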

Additional observations from a re-analysis of the deposited data

Results flagged for a closer look

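Exonic Gli1 and intronic Gli3 had values on opposite sides of their controls with 4 h of IAA in SYAT and in CGR8 cells, in every library. For exonic Gli1, the log2 fold change was 0.59 in SYAT cells and −0.11 in CGR8 cells without the degron. For Gli3 in the intron column, it was 0.29 in SYAT and −0.22 in CGR8 cells, whereas exonic Gli3 overlapped its controls in both (0.09 and −0.07). The intron column of the time course also holds exonic reads and that of CGR8 cells does not. In exons 21.7% of all genes lay above their controls in SYAT and 20.6% below them in CGR8 cells, and in introns 21.4% and 17.5%. These 2 experiments are in separate tables, so the difference between the cell lines was not tested, and 0 of the 4 values passed with adjusted p in edgeR (Gli1 in SYAT cells had an unadjusted p = 0.0202 and an adjusted p = 0.421).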

How the results depend on the processing

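RLE scaling left every count within 1.5 times. Calls among members are summed over the contrasts of a table and column. In exons of the time course, 0 calls at single times became 6 with the replicate block (Disp1 at 4, 6 and 8 h, Gli2 at 6 and 8 h with adjusted p = 0.0313 and 0.0276, and Gli1 at 8 h) and 1 with DESeq2 (Disp1 at 4 h), and 1 call for the mean became 2 with the block (Disp1, adjusted p = 0.0109, and Gli1, 0.0285, from edgeR). For its introns, 0 calls for the mean became 1 without the filter (Disp1). In wtSRCAP and cdSRCAP exons 0 became 5 with the block, and in introns 1 became 5 with the block, 6 without the filter and 4 with DESeq2. In sorted introns 10 became 3 with the exon column subtracted. That alternative also turned the Disp1 difference between LG1 and EG1 responses to −0.35 and Gli2 between LG1 and EG1 controls to −0.0671, and it gave no value for Disp1 in EG1, where both groups were then at 0. The cause was not tested.

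Counts over all genes moved likewise. Time course exons went from 14 to 1533 (block), 1429 (no filter) and 1058 (DESeq2), and introns from 3 to 16, 190 and 1147, and to 0 with exons subtracted. CGR8 exons went from 2 to 500, 386 and 118, and introns from 3 to 31, 137 and 27. Sorted exons went from 921 to 4480, 2033 and 337, and introns from 12644 to 4268 with exons subtracted. Exons of wtSRCAP and cdSRCAP cells went from 2 to 1400, 114 and 46, and to 0 with only the pair fitted, and introns from 83 to 990, 1504 and 540.

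Leaving out 1 library at a time gave 0 to 2 member calls at single times and 0 to 1 for the mean in time course exons, 10 to 12 in sorted introns and 0 to 1 in wtSRCAP and cdSRCAP introns. Over all genes it gave 0 to 3630 and 0 to 1469 calls in time course exons and introns, 3 to 2361 and 0 to 1115 in CGR8, 592 to 1536 and 10726 to 13800 in sorted cells, and 0 to 2 and 1 to 219 in wtSRCAP and cdSRCAP cells. Where a group is left with 1 library, that library is assumed to vary like the other groups.

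Correlations of replicate differences were not over 0.1 for every pair of groups of the time course (−0.0359 to 0.589 in exons). The same held for CGR8 cells and for wtSRCAP and cdSRCAP introns (0.0759 to 0.296). The median was 0.286 in time course exons, close to the 0.289 of wtSRCAP and cdSRCAP exons. Whether same-numbered libraries share more than a number there was not tested, and the replicate block is an alternative. In wtSRCAP and cdSRCAP introns, it called Gli2 in both lines after IAA (adjusted p = 0.0045 and 0.0156), between the controls (0.0181) and between the IAA groups (0.0462), beside Disp1 in cdSRCAP cells (0.0037), all from edgeR.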
